A study of Homo sapiens with 12 samples.

Results

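MTLN, TRIM68, QNG1 and CSRP1 are 4 genes whose RNA was read at background on both arrays of human embryonic stem cells of the line CT2 that carried a mismatch shRNA, and far above background on the 4 other CT2 arrays. They were chosen for that difference, so it is described here with no test. All probes annotated to them were taken, which gave 1 probe per gene, 4 of the 47314 probes and 4 of the 20043 genes on the array. All 4 probes passed the filter on low signal, which asked for 2 arrays or more with a detection p under 0.05, and CSRP1 and QNG1 passed it only through the groups in which they are high.

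Total RNA of 2 embryonic stem cell lines, H9 and CT2, was hybridised to bead arrays made by Illumina. Cells of a line were untreated, or had a mismatch shRNA as control hairpin, or had an shRNA against JMJD1C, a jumonji-domain protein related to H3K9 demethylases. Each of these 6 groups has 2 arrays, 12 in all. The labels give neither the vector and its selection, nor passage, nor whether a culture was a pool or a clone, nor whether replicates were separate cultures, so the spread behind each p-value may be technical.

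Mitoregulin, the product of MTLN, is a small protein of the inner mitochondrial membrane whose transcript was long annotated as noncoding, and it has been linked to fatty acid oxidation. TRIM68 is a RING-type ubiquitin ligase with a SPRY domain, known as a coactivator of the androgen receptor in human cells. QNG1 is a nucleosidase that releases queuine for the modification of tRNA anticodons, and CSRP1 is a LIM-domain protein that binds alpha-actinin and zyxin on actin filaments. Genes of human embryonic stem cells can differ in activity between cultures of 1 line, and many genes active in these cells have promoters rich in CpG, the dinucleotide that DNA methylation acts on. The arrays measured RNA and not methylation.

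An array detected from 44.7% to 47.31% of its probes, and the median raw intensity ran from 150.2 to 196.8. JMJD1C lay between 10.60 and 10.77 on the log2 scale on the 4 knockdown arrays and between 11.48 and 12.49 on the 8 others. Of 11 pluripotent stem cell markers with a probe, among them POU5F1, NANOG and SOX2, all 11 were detected on each of the 12 arrays, and their mean level ran from 13.38 to 13.45 in CT2 mismatch and from 13.42 to 13.49 on the other CT2 arrays. Of the markers of other cell types, CT2 mismatch arrays detected 3 to 4 of 8 for fibroblasts, 2 of 5 for neural cells, 1 to 2 of 8 for mesoderm and endoderm and 1 to 2 of 6 for trophoblast. The other CT2 arrays detected 3 to 5, 2, 1 to 3 and 0 to 3 of these. Levels of single markers moved within these counts. TUBB3, a neuronal tubulin, had a mean of 12.30 in CT2 mismatch against 13.79 untreated and 13.60 with the knockdown, and AFP, made by endoderm, had 8.70 against 10.07 and 10.66. SOX2 was higher by 0.78 than the mean of the other CT2 arrays, and ZFP42 was lower (-0.64). The part of these markers in the levels of the 4 genes was not tested.

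The CT2 mismatch arrays stood apart from the rest. Their correlation with each other across kept probes was 0.9637, the lowest of the 6 groups, where the others had 0.9772 to 0.9898. Replicate 1 correlated best with H9 mismatch replicate 2 (0.9776) and replicate 2 with H9 untreated replicate 1 (0.9741), both of the other line. Some other arrays also had their best match outside their group, but within their line. These were H9 untreated replicate 2 with H9 mismatch replicate 1 (0.9849) and CT2 knockdown replicate 2 with CT2 untreated replicate 2 (0.9865). CT2 mismatch replicate 2 had the lowest mean raw intensity, 1000 against 1199 to 1692 on the other arrays. On the CT2 mismatch arrays the RNAs that part the lines were mostly read as in the other CT2 groups where the separation was wide. Of 20 probes that were silent on the 6 H9 arrays, detected on the 4 other CT2 arrays and separated by more than 2 log2 units, 19 were detected on both CT2 mismatch arrays, and CSRP1 was the exception. Of 9 probes with the opposite pattern 8 were silent on both, and replicate 2 detected 1. With no minimum separation, 39 of 56 probes of the first kind were detected on both CT2 mismatch arrays and 6 were silent on both. Of 45 probes of the opposite kind 29 were silent on both, 8 were detected on both, and replicates 1 and 2 detected 13 and 11.

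MTLN and TRIM68 were detected in all 5 other groups, with a detection p of 0 on each of their 10 arrays. Their promoters are shown since these genes shared a pattern over all 12 arrays, and that of CSRP1 is shown as that of a gene which was silent in CT2 mismatch and in H9 too. The windows are the 250 bases before the annotated start in RefSeq, build GRCh38.p14, on the minus strand in each case, at chr2:110212548-110212797 for MTLN, chr11:4608232-4608481 for TRIM68 and chr1:201507124-201507373 for CSRP1. Capitals mark CpG.
MTLN: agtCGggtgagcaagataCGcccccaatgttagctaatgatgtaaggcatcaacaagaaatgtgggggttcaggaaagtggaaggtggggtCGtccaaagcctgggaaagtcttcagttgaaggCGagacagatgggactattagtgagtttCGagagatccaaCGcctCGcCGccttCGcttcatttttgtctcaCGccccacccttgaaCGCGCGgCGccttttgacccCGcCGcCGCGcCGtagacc
TRIM68: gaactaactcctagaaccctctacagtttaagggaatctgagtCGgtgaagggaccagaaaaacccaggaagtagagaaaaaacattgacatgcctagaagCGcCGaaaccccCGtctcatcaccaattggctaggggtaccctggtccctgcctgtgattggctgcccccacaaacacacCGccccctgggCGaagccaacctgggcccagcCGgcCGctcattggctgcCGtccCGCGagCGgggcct
CSRP1: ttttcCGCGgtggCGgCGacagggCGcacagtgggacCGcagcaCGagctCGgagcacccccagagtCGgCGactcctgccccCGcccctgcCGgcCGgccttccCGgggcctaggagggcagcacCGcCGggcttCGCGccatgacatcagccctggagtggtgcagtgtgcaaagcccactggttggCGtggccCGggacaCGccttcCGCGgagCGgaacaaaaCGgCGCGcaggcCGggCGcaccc

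The MTLN window holds 19 CpG, the TRIM68 window 12 and the CSRP1 window 29, and the QNG1 window, on chromosome 9, holds 23. Their observed over expected CpG ratios were 0.99, 0.56, 0.87 and 0.86 in that order. Of 35116 windows of the same length, 34.6% held at least as many CpG as MTLN, 48.5% as TRIM68, 25.8% as QNG1 and 14.1% as CSRP1. The median of the 4 genes, 21, equals the median of 21 over 8894 genes that were detected on all 6 CT2 arrays, against 11 over 27305 genes. The counts of MTLN and QNG1 lie between the quartiles of the 8894 detected genes, 14 and 28, while TRIM68 lies below and CSRP1 above them. CCAAT, counted on each strand, has 4 matches in the TRIM68 window and 1 in that of MTLN, and 32% of all windows hold it. The TRIM68 matches are not all separate places, since those on opposite strands overlap in the stretch ccaattgg. GGGCGG occurs 1 time each in the CSRP1 and TRIM68 windows and is held by 42.6%, and TATAAA occurs in none of the 4 and is held by 10.7%. These matches describe letters and not sites of binding.

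**Figure D1:**
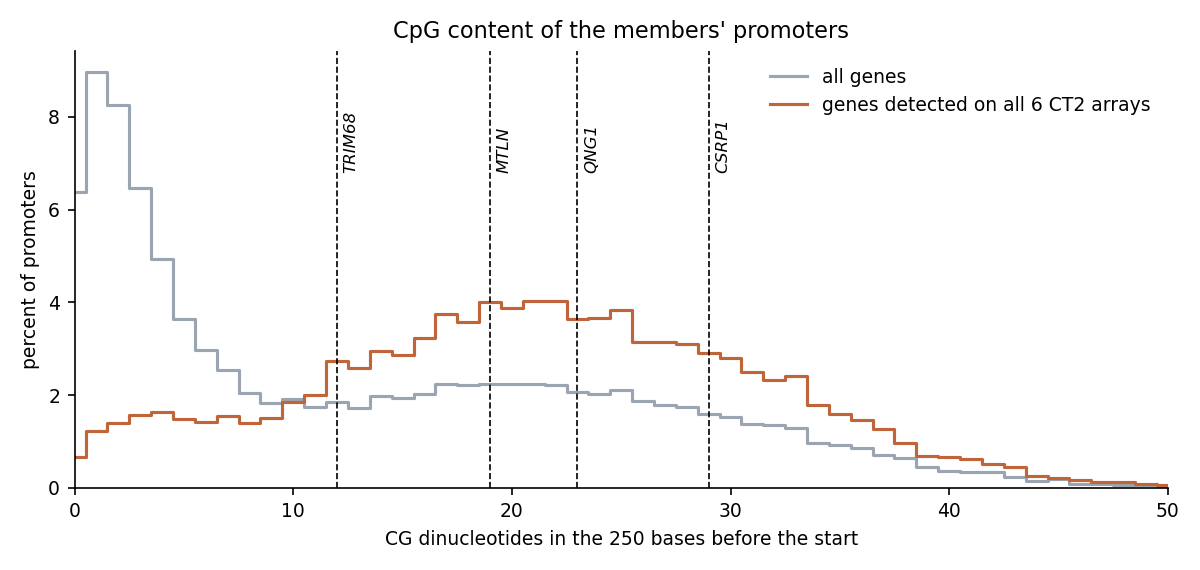
Number of CG dinucleotides in the 250 bases before the start (x axis) against the percent of promoters with that number (y axis), for all genes (grey) and for genes detected on all 6 CT2 arrays (orange), with dashed lines at the 4 genes. The lines at 12, 19, 23 and 29 fall within the broad peak of the detected genes.

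MTLN (probe ILMN_1693685, older symbol LINC00116) gave log2 intensities of 9.62 and 9.51 on the untreated CT2 arrays, 10.02 and 9.74 on the CT2 knockdown arrays, and 5.85 and 5.35 on the CT2 mismatch arrays. The mismatch arrays lie apart from the rest by 3.66, and raw intensities there were 194.9 and 140.5 against 763.6 to 1216. Detection p on the mismatch arrays was 0.08052 and 0.3312, so MTLN was not well above background on either. MTLN was at least 11.7-fold higher in untreated CT2 and at least 14.6-fold higher in CT2 knockdown than in CT2 mismatch, where a bound takes the lowest detected signal of an array in place of a lower one.

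In H9 the same probe read 9.38 and 9.91 without treatment, 9.29 and 9.84 with the mismatch shRNA and 9.97 and 9.80 with the knockdown. The H9 groups overlap each other, and their range covers that of untreated CT2. The H9 arrays with the same control hairpin were at least 11.7-fold above the CT2 mismatch arrays. The level of MTLN was thus alike over 5 groups, whose means ran from 9.57 ± 0.08 (SD, n = 2) in untreated CT2 to 9.89 ± 0.12 (SD, n = 2) in the H9 knockdown, with no gap between neighbours beyond their spread.

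TRIM68 (probe ILMN_1694174) gave 8.45 and 8.47 on the untreated CT2 arrays, 8.65 and 8.30 on the CT2 knockdown arrays, and 5.10 and 5.0 on the CT2 mismatch arrays. The untreated and knockdown arrays overlap, and the mismatch arrays lie 3.20 below the lowest of them, with a detection p of 0.5896 and 0.7221. TRIM68 was at least 5.45-fold higher in untreated CT2 and at least 5.52-fold higher in CT2 knockdown than in CT2 mismatch.

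In H9 the TRIM68 probe read 8.79 and 9.02 without treatment, 9.45 and 9.68 with the mismatch shRNA and 9.31 and 9.21 with the knockdown. The 3 H9 groups do not overlap, with mismatch highest. In order of mean, H9 mismatch (9.56 ± 0.16, SD, n = 2) came before H9 knockdown (9.26 ± 0.07), untreated H9 (8.91 ± 0.16), CT2 knockdown (8.48 ± 0.25) and untreated CT2 (8.46 ± 0.01). Only the last pair overlap, and CT2 mismatch (5.05 ± 0.07) stands far below all.

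QNG1 (probe ILMN_1777318, older symbol C9orf64) was silent in 3 of the 6 groups. In CT2 it read 9.77 and 9.66 without treatment, 9.37 and 8.98 with the knockdown, and 5.40 and 5.43 with the mismatch shRNA. The mismatch arrays lay 3.56 below the others, at a detection p of 0.2766 and 0.2688, and QNG1 was at least 13-fold higher in untreated CT2 and at least 8.95-fold higher in CT2 knockdown. In H9 it read 4.81 and 5.28 without treatment, 5.25 and 5.20 with the mismatch shRNA, and 8.89 and 9.31 with the knockdown. Both other H9 groups were at background, with a detection p from 0.3649 to 0.9481, so that the knockdown arrays were the only H9 arrays with a detected signal. Where QNG1 was on, its means were close, at 9.10 ± 0.30 (SD, n = 2) in H9 knockdown, 9.17 ± 0.27 in CT2 knockdown and 9.72 ± 0.07 in untreated CT2.

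CSRP1 (probe ILMN_1811921) was read above background only in CT2. It gave 8.64 and 9.45 on the untreated CT2 arrays, 11.58 and 11.37 on the CT2 knockdown arrays, and 5.41 and 5.67 on the CT2 mismatch arrays. Each knockdown array lies above both untreated arrays, and the mismatch arrays lie 2.97 below the lowest of these, at a detection p of 0.2636 and 0.1364. CSRP1 was at least 8.19-fold higher in untreated CT2 and at least 44-fold higher in CT2 knockdown than in CT2 mismatch. On the H9 arrays it lay between 4.97 and 5.92 with a detection p from 0.06104 to 0.7455, so it was not well above background on any of the 6 and no fold is given among H9 groups. Untreated CT2 was at least 8.53-fold above untreated H9 by the same bound. In bulk RNA, fewer cells that express a gene and less RNA per cell cannot be told apart.

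**Figure D2:**
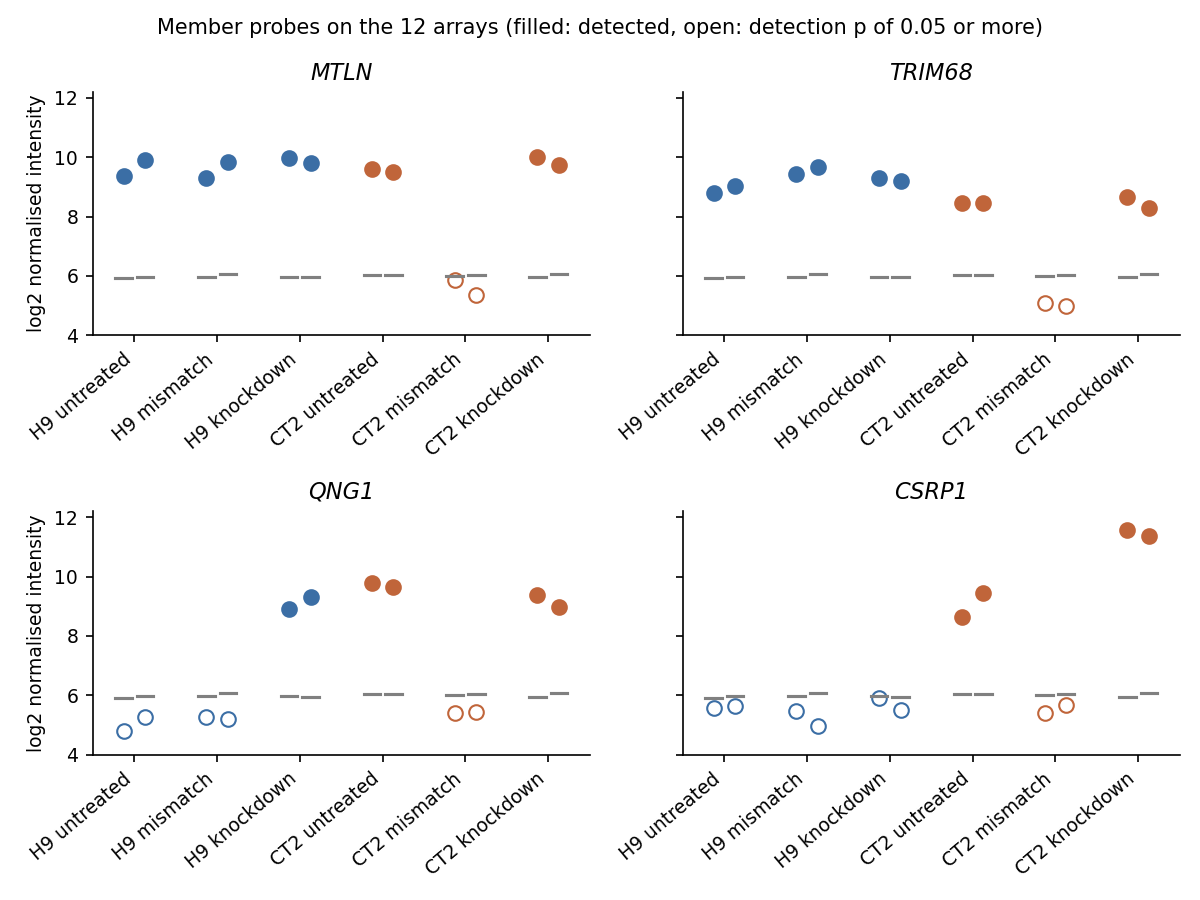
Log2 normalised intensity (y axis) of the 4 probes on each of the 12 arrays by group (x axis), H9 in blue and CT2 in orange, filled where the detection p is under 0.05 and open otherwise, with a grey bar at the lowest detected signal of each array. The CT2 mismatch arrays are open circles in all 4 panels, between 5.0 and 5.85, QNG1 is filled in H9 with the knockdown alone, and CSRP1 is open on all 6 H9 arrays.

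The 3 patterns are shared to different degrees. Over the 12 arrays MTLN and TRIM68 correlated at r = 0.96, QNG1 and CSRP1 at 0.70, MTLN and QNG1 at 0.44, MTLN and CSRP1 at 0.32, QNG1 and TRIM68 at 0.25, and TRIM68 and CSRP1 at 0.07. All of these include the same pair of CT2 mismatch arrays that the genes were chosen on. In 28 probes the 12 arrays are detected and silent exactly as for MTLN and TRIM68, and among these the 2 genes are the only ones with a separation over 2 log2 units. The pattern of CSRP1 is held by 6 probes and that of QNG1 by 3, and in each the member has the largest separation, 2.72 and 3.47.

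Among 18816 probes detected on all 4 untreated and knockdown CT2 arrays, 148 were silent on both CT2 mismatch arrays, 0.787%, from which nothing is read since the genes were chosen for this. With each other group of a line in that place the share was 0.548% for untreated H9, 0.622% for H9 mismatch, 0.601% for H9 knockdown, 0.597% for untreated CT2 and 0.325% for CT2 knockdown. Most such probes were near background everywhere, with a median separation of 0.36 in CT2 mismatch. A separation over 2 log2 units was found for MTLN, QNG1, TRIM68 and CSRP1 in CT2 mismatch and for no other probe there. The member nearest that value was CSRP1 at 2.97, and the gene with the largest separation outside was TES, a LIM-domain protein of focal adhesions, at 1.42.

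The other groups held from 0 to 3 probes with a separation over 2 log2 units. In H9 mismatch these were CRYZ, TYW3 and ZNF502, in H9 knockdown CAT, NLRP7 and a probe with no symbol, in CT2 knockdown CXCL5, in untreated H9 a probe with no symbol, and untreated CT2 had 0. These names were taken after their values were seen. Each of these probes was detected on all 6 arrays of the other line, as MTLN and TRIM68 were.

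**Figure D3:**
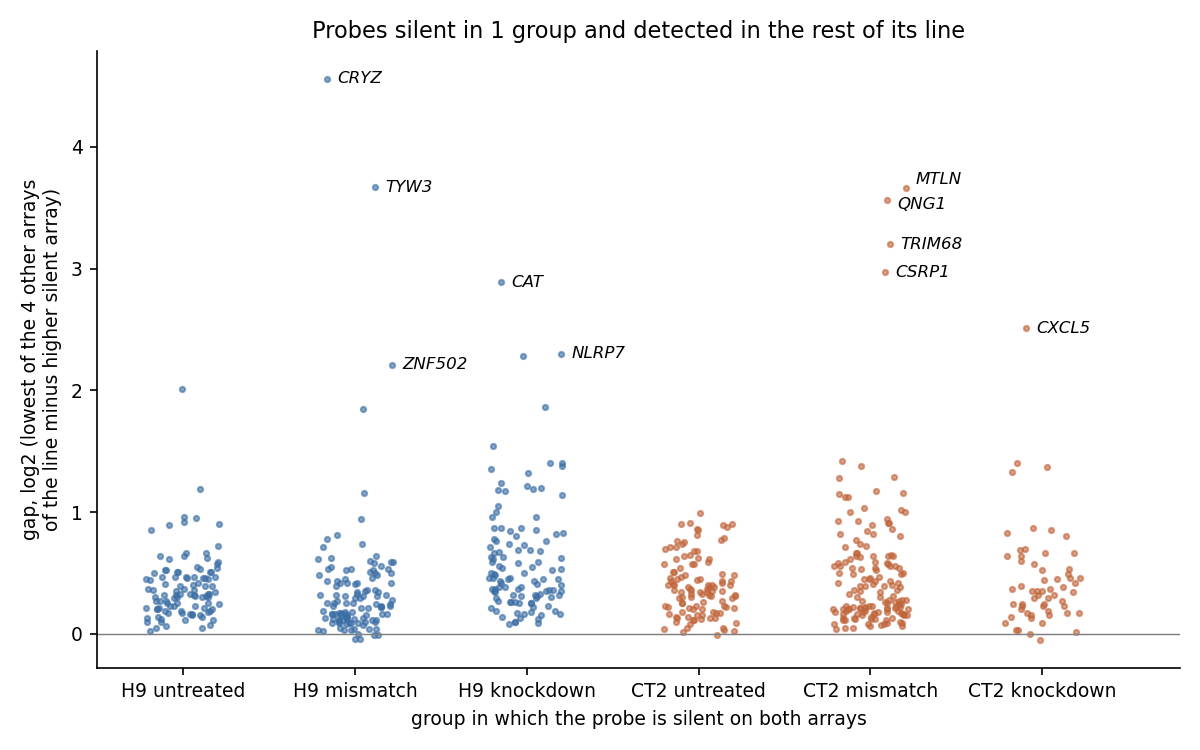
Separation on the log2 scale (y axis) of each probe that was silent on both arrays of a group (x axis) and detected on the 4 other arrays of its line, 1 point per probe, with horizontal spread for legibility. In CT2 mismatch 4 labelled points lie at 2.97 to 3.66 and the next at 1.42.

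Behind the 4 genes came TES, the ETS factor gene ELF2 (1.38), SP140 (1.28), a chromatin reader of immune cells, SLC7A11 (1.17), the cystine transporter subunit, CAPN13 (1.16), a calpain, SHC3 (1.15), an adaptor of receptor kinases, NOP2 (1.12), an rRNA methyltransferase, STIMATE (1.02), and the histone genes H2BC4 (1.0) and H2BC11 (0.94). Their levels outside the mismatch arrays were low, as for TES at 7.10 and 7.08 and SLC7A11 at 7.02 and 7.76 in the untreated and knockdown CT2 means. Where such a gene had further probes, these were not all silent. NOP2 had 3 further probes and ELF2 had 2, all detected on both mismatch arrays. For SP140 all 3 of its probes were silent there. The 4 chosen genes have no second probe against which their own could be set.

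Of the 90 genes with the silent call in CT2 mismatch, 19 were detected on all 6 H9 arrays, 67 on 1 to 5 and 4 on none. Among the 10 named above SLC7A11, TES, ELF2, CAPN13, NOP2 and STIMATE were of the first kind.

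By correlation over the 12 arrays, the genes nearest to MTLN were SH2D4A (r = 0.976), MALL (0.962) and TRIM68 (0.955), and those nearest to TRIM68 were POLA2, a subunit of DNA polymerase alpha (0.966), SEC22C (0.961) and MTLN. The mean of SH2D4A was 7.27 in CT2 mismatch and 8.15 to 8.34 elsewhere, and that of POLA2 was 9.48 against 10.67 to 11.20. Both stayed detected on both mismatch arrays. The correlations of every member include the CT2 mismatch arrays on which the members were chosen. MTLN and TRIM68 were silent on those arrays alone, so a gene that is lower there can rank high for either. The nearness of MTLN and TRIM68 to each other is therefore not independent of the choice, and no relation is read from these ranks. Nearest to QNG1 were GLB1L3 (0.951), the histone gene H4C14 (0.945) and the proprotein convertase gene PCSK5 (0.945). The mean of PCSK5 was 11.25 in H9 knockdown, 11.44 in untreated CT2 and 11.96 in CT2 knockdown, against 9.94 to 10.15 in the 3 groups where QNG1 was silent. Nearest to CSRP1 were LRFN5 (0.962), PIWIL2 (0.955), a PIWI protein of the germline, and LCP1 (0.931), an actin-bundling plastin. PIWIL2 was at 6.18 in untreated CT2 and 8.21 in CT2 knockdown, and its means were 4.85 to 5.25 elsewhere.

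The protein-coding neighbours of the 4 genes were taken by gene order in GRCh38.p14. Of 16 neighbours with a probe, 10 were detected on at least 1 array, and 9 of these on both CT2 mismatch arrays. Of the 9 neighbours that the other CT2 arrays detected, 2 were above all 4 of those arrays on both mismatch arrays, 2 were below them on both, and 5 overlapped them. Beside CSRP1, NAV1 read 9.01 and 8.0 in CT2 mismatch, above the other CT2 arrays at 7.11 to 7.83. PHLDA3 overlapped them, and so did IPO9, which read 10.77 and 12.10 against 10.75 to 10.94. Beside QNG1, GKAP1 read 7.73 and 7.83, above 6.16 to 6.93, while HNRNPK and RMI1 overlapped the other CT2 arrays. KIF27 was detected on both CT2 mismatch arrays and on none of the 4 other CT2 arrays, so no difference is given. Its values there, 6.08 and 6.06, lay just over the lowest detected signals of those arrays, 5.99 and 6.03. In H9, KIF27 was detected on both mismatch arrays (6.49 and 6.33) and on knockdown replicate 1 (6.03). The 4 neighbours of TRIM68 are olfactory receptor genes and were silent on all 12 arrays.

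Beside MTLN, MALL and BUB1 were lower on both CT2 mismatch arrays than on the 4 other CT2 arrays. BUB1, a mitotic checkpoint kinase, read 11.48 and 11.82 against 12.26 to 12.50. LIMS3 read 6.50 on mismatch replicate 1, within the other CT2 arrays at 6.17 to 7.10, and was silent on replicate 2. LIMS3 has near-identical copies whose RNA its probe may share. MALL, which encodes a membrane protein of the MAL family and lies 1 gene away from MTLN, read 7.41 and 7.41 on the CT2 mismatch arrays and between 8.70 and 9.06 on the other CT2 arrays. On the H9 arrays MALL lay between 8.42 and 9.04. The mismatch arrays were thus the lowest of the 12 for MALL, though both were detected.

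**Figure D4:**
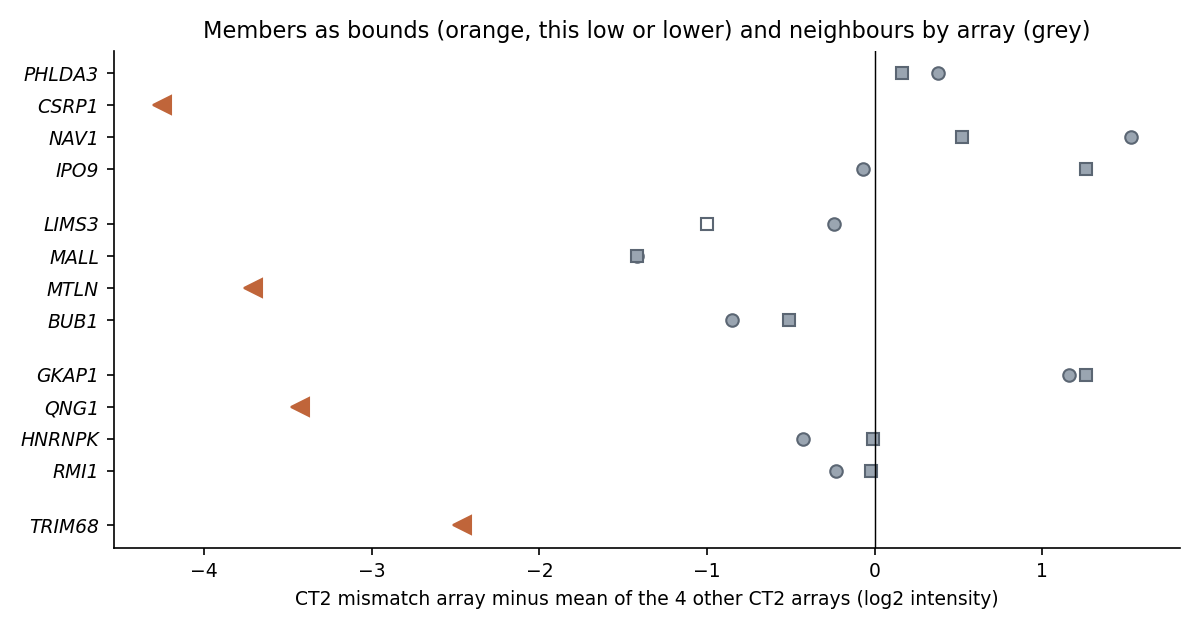
Log2 intensity of each CT2 mismatch array minus the mean of the 4 other CT2 arrays (x axis) for the neighbours those 4 arrays detected (grey circles for replicate 1, squares for replicate 2, open where silent), in gene order within each block (y axis). Orange arrowheads stand for the 4 genes at their bounds, which lie 2.46 (TRIM68) to 4.25 (CSRP1) below the other CT2 arrays, while both arrays of MALL lie at -1.42.

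Comparisons between groups other than CT2 mismatch could be tested for the 4 genes, with limma over all 25905 kept probes and p-values adjusted by the Benjamini-Hochberg method. The fit took all 12 arrays, so the CT2 mismatch arrays entered the estimate of the spread. Without them 30 probes in place of 8 were called for H9 mismatch against no treatment, 1019 in place of 376 for H9 knockdown and 149 in place of 38 for CT2 knockdown. The H9 comparisons share arrays with each other. Whether the control hairpin moved the genes in the other line was asked with H9 mismatch against untreated H9. Of the 4 probes 0 passed and 1, TRIM68, had an unadjusted p under 0.05, beside 0.0309% of all probes called and 8.79% at an unadjusted p under 0.05. TRIM68 gave 0.66 ± 0.26 (log2 fold change ± SE, higher on 2 of 2 arrays, adjusted p = 0.549) and MTLN -0.08 ± 0.28 (adjusted p = 0.94). CSRP1 and QNG1 were at background in both groups.

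With the knockdown in H9, QNG1 rose, while MTLN and TRIM68 did not pass. CSRP1 did not pass either, but it was at background in all H9 groups, so nothing is read from that. Against untreated H9, QNG1 was at least 8.88-fold higher (fitted log2 fold change 4.06 ± 0.31, adjusted p = 3.26e-06), 1 of 4 probes beside 1.45% of all probes called and 14.1% at an unadjusted p under 0.05. Against H9 mismatch it was at least 8.45-fold higher, 1 of 4 probes called beside 1.4% of all and 9.64% unadjusted. Both knockdown arrays lay above all 4 other H9 arrays. QNG1 and CSRP1 were already known, when chosen, for a rise from mismatch to knockdown, which is read in both lines for QNG1 and in CT2 alone for CSRP1. The comparison of H9 knockdown with H9 mismatch is therefore given as a description. The same knockdown arrays enter the comparisons with untreated cells, whose p-values are therefore not independent of the choice either. QNG1, BEX5 and MAGEA8 were the 3 genes that were detected on both H9 knockdown arrays and silent on the 4 other H9 arrays by more than 2 log2 units. MTLN gave 0.24 ± 0.28 (adjusted p = 0.744) and TRIM68 0.36 ± 0.26 (adjusted p = 0.568) against untreated H9.

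With the knockdown in CT2, CSRP1 rose and the other 3 did not pass. Its high knockdown values were known when it was chosen, and its detection in untreated and knockdown CT2 was part of the choice. It also passed the filter on low signal only through these arrays. The test is therefore not independent of the choice, and 1 of 4 genes so chosen cannot be weighed against the share of all probes. Against untreated CT2, CSRP1 was 5.38-fold higher (2.43 ± 0.34, adjusted p = 0.00511, higher on 2 of 2 arrays), 1 of 4 probes beside 0.147% called and 7.54% unadjusted. The call was lost without untreated replicate 1 (2.03, adjusted p = 0.219), without knockdown replicate 1 (2.32, 0.155) and without knockdown replicate 2 (2.53, 0.0651), each of which leaves 1 array in a group. QNG1 gave -0.54 ± 0.31 (adjusted p = 0.777), MTLN 0.31 ± 0.28 (adjusted p = 0.913) and TRIM68 0.02 ± 0.26 (adjusted p = 0.998).

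The fitted response to the knockdown against no treatment differed between the lines for QNG1. The H9 response minus the CT2 response was 4.60 ± 0.44 (adjusted p = 8.69e-05), 1 of 4 probes beside 0.131% called and 7.68% unadjusted, with untreated H9 at background. The H9 side of that value starts from signals below the lowest detected level, and its bound is a log2 fold change of 3.15. QNG1 and CSRP1 were chosen as detected in untreated and knockdown CT2, so tests of this difference are not independent of the choice. For CSRP1 the difference was -2.32 ± 0.49 and did not pass (adjusted p = 0.104), but it passed without background correction (0.00475), with an offset of 50 (0.0189), with median scaling (0.0408), with the authors' table (0.00409) and without the CT2 mismatch arrays in the fit (0.0324). The H9 side of that difference lay at background. MTLN gave -0.07 ± 0.40 (adjusted p = 0.979) and TRIM68 0.34 ± 0.37 (adjusted p = 0.851).

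**Figure D5:**
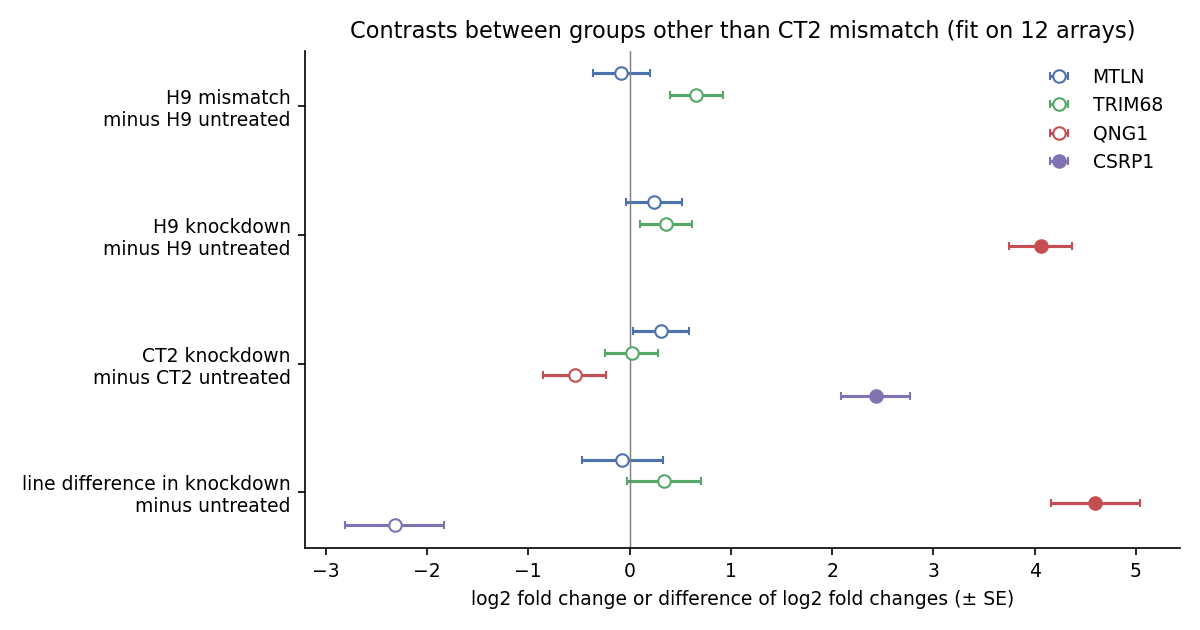
Log2 fold changes or their difference between lines (x axis, with SE) for each gene in 4 comparisons between groups other than CT2 mismatch (y axis), fitted on all 12 arrays, filled where the adjusted p is under 0.05, and left out where both groups were at background. QNG1 lies at 4.06 and 4.60 where it passed, CSRP1 at 2.43 in CT2, and MTLN and TRIM68 between -0.08 and 0.66 throughout.

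The pathways of the 4 genes were read through the probe with the highest mean for each gene. Since 0.787% of all probes carried the silent call in CT2 mismatch, a count of 0 in lists of this size sets none of them apart. In the 5 comparisons, 0.0309% to 1.45% of all probes were called, and 7.54% to 14.1% had an unadjusted p under 0.05. Counts at an unadjusted p in the lists, markers included, are given beside these shares, and nothing is read from them. Of 26 measured genes of the queuosine pathway and of anticodon modification without QNG1, 25 were detected on the 4 other CT2 arrays and 0 of these were silent on both mismatch arrays. QTRT1 and QTRT2, the subunits of the enzyme that inserts queuine, were at 9.94 and 10.54 in CT2 mismatch and, in the same order, at 9.98 and 11.40 in untreated CT2. In H9, TYW3, a wybutosine enzyme of tRNA, was silent on both mismatch arrays, with a mean of 4.80 against 8.86 in untreated and 9.93 in knockdown cells. It fell against no treatment (fitted -4.06 ± 0.26, adjusted p = 5.77e-07) and was higher in the knockdown than in mismatch (fitted 5.13 ± 0.26, adjusted p = 1.6e-08). Both fitted sizes rest on mismatch signals below the lowest detected level, and no bound was computed for TYW3. No other gene of the list passed in any of the 5 comparisons, with 0 to 4 members at an unadjusted p under 0.05, beside 7.54% to 14.1% of all probes.

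Among 29 measured LIM-domain and actin-binding genes without CSRP1, 28 were detected on the 4 other CT2 arrays and 0 of these were silent in CT2 mismatch. TES is among the 28 by its brightest probe (6.61 in CT2 mismatch, 7.47 untreated), while the dimmer probe described above was silent there. CSRP2, the closest measured relative of CSRP1, lay between 13.04 and 13.78 in all group means. Other genes of the list moved in CT2 mismatch against the other CT2 arrays. The lowest were TAGLN (-1.18), TES (-0.97), ZYX (-0.90), LASP1 (-0.81) and SRF (-0.81), and the highest MRTFB (1.30) and MRTFA (1.15). The median of the list was 0.07 there, beside -0.01 over all probes, and these differences were not tested. TPM1, a tropomyosin, fell in H9 knockdown against no treatment (-0.66 ± 0.15, adjusted p = 0.0299), and 0 of the 29 passed in the other comparisons, with 3 to 6 at an unadjusted p under 0.05. Of all probes 7.54% to 14.1% had such a p. The median of the list in CT2 knockdown against untreated CT2, where CSRP1 rose, was 0.16, beside 0.01 over all probes.

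For MTLN, 19 measured genes of mitochondrial fatty acid oxidation and 14 of small inner-membrane proteins and cardiolipin synthesis were all detected on the 4 other CT2 arrays, and 0 were silent in CT2 mismatch. The median difference between CT2 mismatch and the other CT2 arrays was -0.10 and 0.09 for these lists, beside -0.01 over all probes. HADHA, a subunit of the mitochondrial trifunctional protein, differed by -0.84 and its partner HADHB by 0.45. With limma 0 members of either list passed in any of the 5 comparisons, with 0 to 4 at an unadjusted p under 0.05, beside 7.54% to 14.1% of all probes.

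Of 18 measured SPRY-domain TRIM genes without TRIM68, 13 were detected on the 4 other CT2 arrays and 0 of these were silent in CT2 mismatch. TRIM4, TRIM17 and TRIM21, which were silent on both mismatch arrays, are not among the 13. TRIM4 had means of 7.16 in untreated H9, 5.10 in H9 mismatch and 8.87 in H9 knockdown. It was silent on both H9 mismatch arrays. Only 4 arrays detected it, those of untreated and knockdown H9, and it passed the filter through these alone. TRIM4 rose with the knockdown against no treatment (1.71 ± 0.31, adjusted p = 0.0098). It was lower with the mismatch shRNA than without treatment (fitted -2.06 ± 0.31, adjusted p = 0.0223). The knockdown lay above mismatch (fitted 3.77 ± 0.31, adjusted p = 3.11e-06). Both fitted sizes rest on mismatch signals below the lowest detected level, and no bound was computed. TRIM22, an interferon-induced antiviral protein, fell with the knockdown against no treatment (-1.92 ± 0.30, adjusted p = 0.00344) and against mismatch (-1.36 ± 0.30, adjusted p = 0.0318). In CT2 0 of the 18 passed, with 1 at an unadjusted p under 0.05, beside 0.147% and 7.54% of all probes. Among the marker lists ZFP42, a pluripotency factor (-1.19 ± 0.17, adjusted p = 0.00167), and COL1A1, a fibrillar collagen (-1.28 ± 0.29, adjusted p = 0.0341), fell in H9 knockdown against no treatment. Both also fell against mismatch, by -1.22 ± 0.17 (adjusted p = 0.00116) and -1.57 ± 0.29 (adjusted p = 0.00901), where THY1 rose (0.87 ± 0.17, adjusted p = 0.0122). With limma 0 markers passed in CT2 knockdown against untreated CT2, with 0 to 2 per list at an unadjusted p under 0.05, beside 0.147% and 7.54% of all probes.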

How the data were processed

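Total RNA of 6 groups was hybridised to 12 Illumina bead arrays. The deposited table gives, per the file headers, a non-normalized mean bead intensity and a detection p-value per probe and array. The submitters' processing notes name GenomeStudio, and the sources used here give no version. The table has a block for H9 (47320 probes) and one for CT2 (47315), joined by each block's own identifiers to 47314 probes. The authors' value table of processed intensities, made by a method the sources used here do not state, served as an alternative only.

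Intensities were corrected with limma 3.58.1 in R 4.3.3 (normexp, negative controls inferred from detection p, offset 16), quantile-normalized over 12 arrays and log2-transformed. The 25905 probes whose detection p fell under 0.05 on 2 or more arrays entered the tests, of which 19076 carry 1 symbol and stand for 13951 genes. One limma model with the 6 group means took all 12 arrays, with trend and robust settings. Two-sided p-values were adjusted by Benjamini-Hochberg over the 25905 probes, at a threshold of 0.05. Silent means a detection p of 0.05 or more. For the 4 genes, where a group was silent on both arrays, a fold is a bound against the lowest detected signal of each array. Genes of the lists have fitted values only, and those of TYW3 and TRIM4 against H9 mismatch rest on silent arrays. The fit was tested on simulated data of 25905 probes, 200 of them changed, for the comparison of H9 knockdown with untreated H9. It recovered 17% of probes changed by 1 and 75% of those changed by 2 log2 units, with 5 false calls among the unchanged probes. Each simulated probe had the same spread in all groups, while in the data the CT2 mismatch replicates correlated least. The number of arrays limits the precision.

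Gene symbols came from the platform annotation, and promoter sequences from RefSeq, where all 4 genes matched. Members and lists were chosen with earlier results of these data known. Named genes were the 4 members, the 10 other genes with the largest separation in CT2, the 3 genes that correlated best with each member, up to 3 genes per list past the threshold in each comparison, and the 2 nearest measured neighbours on either side. The lists cover pathways of the members and markers of cell types. Replicate numbers are shared by all groups, but the deviations of replicate 1 from its group mean correlated between -0.3918 and 0.3784 over 15 pairs of groups, and 4 pairs were over 0.1, so the numbers were not taken to pair the arrays.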

Additional observations from a re-analysis of the deposited data

Results flagged for a closer look

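The fitted response of QNG1 to the knockdown differed between the lines, by the test of that difference itself. The H9 response minus the CT2 response, each against untreated cells, was 4.60 ± 0.44 on the log2 scale (limma, adjusted p = 8.69e-05). In H9 the gene went from background on both untreated arrays to 8.89 and 9.31, and in CT2 from 9.77 and 9.66 to 9.37 and 8.98. The knockdown arrays of the lines end close to each other, and the untreated arrays do not. The difference passed under all 24 alternatives, between 2.86 and 4.84. The gene's high knockdown values were known when it was chosen, and its detection in untreated CT2 was part of the choice. Neither the test nor its result under the alternatives is therefore independent of the choice. The untreated H9 signals lie below the lowest detected level, and the bound for the H9 side is a log2 fold change of 3.15.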

How the results depend on the processing

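The 4 genes were chosen for lying lower on the CT2 mismatch arrays, so their order there (4 of 4 under each alternative) is no sign of stability. QNG1 passed under all 25 alternatives for H9 knockdown against no treatment, with fitted log2 fold changes from 2.41 to 4.30. Its high knockdown values were known when it was chosen, and it passed the filter only through the groups in which it is high. Untreated H9 was at background, so the fitted sizes start from signals below the lowest detected level. These passes are therefore no sign of stability either. The counts of probes called depend on the arrays that set the shared spread. Without the CT2 mismatch arrays in the fit they were 30 in place of 8 for H9 mismatch against no treatment, 551 in place of 363 for H9 knockdown against mismatch, 1019 in place of 376 for H9 knockdown against no treatment, 149 in place of 38 for CT2 knockdown against no treatment and 88 in place of 34 for the difference between the lines. H9 knockdown against no treatment gave 235 without trend and robust settings, and CT2 knockdown against no treatment gave 18 with only CT2 arrays. With 1 array left out, or with both CT2 mismatch replicate 2 and H9 untreated replicate 1 left out, as chosen after seeing the data, the counts ran from 2 to 30, 96 to 922, 74 to 1021, 7 to 381 and 14 to 129 in the same order. The lowest came without H9 mismatch replicate 2, H9 knockdown replicate 1 (for both H9 knockdown counts), CT2 untreated replicate 1 and CT2 knockdown replicate 1, and leaving out either CT2 mismatch array raised each count by over 1.5 times. With the replicate block QNG1 gave 4.06 against untreated H9 (adjusted p = 1.52e-05), CSRP1 gave 2.43 in CT2 (adjusted p = 0.0155), and no call of a member changed. Values near 0 that did not pass changed sign when an array was left out, with the cause not tested. MTLN ran from -0.35 to 0.19 for H9 mismatch and from -0.02 to 0.50 for H9 knockdown, each against no treatment, and from -0.34 to 0.19 for the difference between the lines, and TRIM68 from -0.15 to 0.20 for CT2 knockdown. CSRP1 passed in CT2 under 22 of 25 alternatives (2.03 to 2.83). In the difference between the lines it passed under 8 of 24, of which 3 left out a CT2 mismatch array. The high knockdown values of CSRP1 were known when it was chosen, and its detection in untreated and knockdown CT2 was part of the choice. Its H9 signals lay at background. These counts are therefore not independent of the choice. Signals under the lowest detected level, 5.92 to 6.07 by array, have no order.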
